A study of Mus musculus with 8 samples.

Results

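The Schlafen (Slfn) genes Slfn1, Slfn2, Slfn3, Slfn4, Slfn5, Slfn8 and Slfn9 were followed in hematopoietic stem and progenitor cells after 1 injection of IFNα. These 7 genes were taken by their symbols from the 27998 gene rows of the count files, which hold 10 rows whose symbol starts with Slfn. The cells were bone marrow cells of the LK gate (lineage negative, c-Kit positive) to which sorted HSCs (LKSLAMCD34-) had been added. Wildtype mice of 12 to 14 weeks were used throughout. Control mice had received 100 µl PBS under the skin, and the treated mice 50000 IU of recombinant mouse IFNα for each 20 g of their weight. They were collected 3, 24 or 72 h later. Each group had 4 mice, 16 in all. Within a time point, the cells of each mouse were marked with a hashtag antibody, pooled with those of the other mice and sequenced as 1 library, so that time point and library cannot be told apart.

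Type I interferons act through the receptor Ifnar1/Ifnar2, whose signal reaches the nucleus and acts at the interferon-stimulated response element (ISRE) in front of interferon-stimulated genes (ISGs). Schlafen genes lie side by side in the genome and are known as ISGs in many cell types. Their proteins share an amino-terminal core. Short members such as Slfn1 and Slfn2 hold little else, Slfn3 and Slfn4 are of intermediate length, and the long members Slfn5, Slfn8 and Slfn9 also carry a helicase-like part. Members of the family are known to bind or cleave tRNA and to restrain proliferation or viral replication.

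On chromosome 11 of the GRCm38 build the 7 genes spanned 264 kb in the GENCODE vM21 annotation. Slfn5 (start 82951349, end 82964840) lies on the plus strand and is followed by Slfn9 (82978390 to 82991830) and Slfn8 (83002158 to 83020810) on the minus strand. Slfn2 (83065112 to 83070678), Slfn1 (83116849 to 83122670), Slfn4 (83175186 to 83190216) and Slfn3 (83191330 to 83215154) then follow on the plus strand. All 7 are protein coding. Counts of Slfn3, Slfn8 and Slfn9 are uncertain, because parts of their 3′ ends, where this chemistry reads, are repeated in a relative. Of the stretches of 50 bases in the last 500 bases of their transcripts, 12.5% of those of Slfn3 also occur in Slfn4, 25.5% of those of Slfn8 in Slfn9 or the pseudogene Slfn10-ps, and 15.8% of those of Slfn9 in Slfn8 or Slfn10-ps. None of those of the other 4 members occur in another gene.

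The promoters fell into 2 sets by their letters. The RefSeq sequences (GRCm38.p6) give the 250 bases before the start of all 7 members. An ISRE core, written here as GAAANNGAAA on either strand with N for any base, was present before the long members Slfn5, Slfn8 and Slfn9 and was not in the window of the other 4. The core is in 978 of all 32851 RefSeq windows of this length, or 2.98%, and 12 of the 23 listed ISGs with a window hold it. The stretches around the core are shown for these 3 members. Whether the core goes with the response or with its differences between cell classes was not tested. Capitals mark the core, which reads as its reverse complement in Slfn8 and Slfn9. Slfn5 is from chr11:82951887-82951981 (plus strand), Slfn8 from chr11:83020824-83020918 (minus strand) and Slfn9 from chr11:82991841-82991935 (minus strand). The RefSeq start of Slfn5 lies inside the GENCODE gene, so that its stretch does too.
Slfn5: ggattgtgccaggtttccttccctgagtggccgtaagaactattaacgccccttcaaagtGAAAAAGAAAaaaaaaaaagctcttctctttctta
Slfn8: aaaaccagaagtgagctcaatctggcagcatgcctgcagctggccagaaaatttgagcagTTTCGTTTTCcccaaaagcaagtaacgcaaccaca
Slfn9: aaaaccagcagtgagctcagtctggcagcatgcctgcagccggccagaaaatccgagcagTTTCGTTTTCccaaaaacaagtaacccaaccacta
The core lies 155 to 146 bases before the start in Slfn5, 48 to 39 in Slfn8 and 45 to 36 in Slfn9. For Slfn8 this is the outermost RefSeq start. Before another RefSeq start of Slfn8, further inside the gene, the same core lies at 136 to 127 bases. The stretches of Slfn8 and Slfn9 have the same letter at 77 of 95 bases, aligned without gaps. A GAS core, TTCNNNGAA, is in 7.02% of all windows, in 5 of the 23 listed ISGs and in 0 of the 7 members.

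The other 4 members shared a run of 9 bases, the longest that all of them hold, which was chosen after the letters were seen. It is in 230 windows of the 32851, or 0.700%, and in none of the 3 long members. Capitals mark it in Slfn1 from chr11:83116716-83116784, Slfn2 from chr11:83065027-83065095, Slfn3 from chr11:83191258-83191326 and Slfn4 from chr11:83175083-83175151, all on the plus strand.
Slfn1: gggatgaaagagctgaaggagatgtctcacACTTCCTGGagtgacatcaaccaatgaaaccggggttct
Slfn2: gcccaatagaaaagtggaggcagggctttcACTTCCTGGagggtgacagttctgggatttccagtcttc
Slfn3: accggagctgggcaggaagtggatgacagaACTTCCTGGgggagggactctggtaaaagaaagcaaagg
Slfn4: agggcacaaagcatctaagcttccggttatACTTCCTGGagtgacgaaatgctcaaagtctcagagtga
These are matches of letters in the reference, and binding at them was not measured.

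After filtering, 2474 control cells and 1661, 3462 and 2449 cells of the 3, 24 and 72 h libraries were kept, with median counts of 12017 to 18964.5 transcripts (UMIs) per cell. The UMIs summed per mouse ranged from 1102706 to 26446327. Control mouse 4 gave 58 cells, where the next smallest mouse gave 330. Libraries shared at most 1 kept cell barcode. The labelled cells carried the markers of stem and progenitor cells. The summed level of the 9 HSC markers was 514 to 600 CPM in control mice and 887 to 1320 CPM at 3 h, while the 12 neutrophil progenitor markers were at 13293 to 18441 in control mice and 6912 to 10246 at 3 h. None of the defining markers of these lists was at 0. The 7 T cell markers, of which 1 to 3 were at 0 in each time point, summed to at most 2.03 CPM in every mouse and the 6 macrophage markers to at most 13.8 CPM. The 5 B cell markers summed to 28.3 to 60.7 CPM and the 3 pDC markers to at most 1.26 CPM. The 4 NK cell markers were the highest of the mature lists, at 341 to 620 CPM in control mice and 290 to 388 CPM at 3 h, with 1 of them at 0 at 24 and at 72 h. The summed levels of these lists thus moved with time. The HSC list holds Ly6a, which is also one of the listed ISGs, so that its sum does not measure the makeup of the compartment alone. Of the 2474 kept control cells, 410 were labelled HSC-like and 521 neutrophil progenitor-like. At 3 h these were 544 and 148 of 1661 cells, and at 72 h 726 and 216 of 2449. The part of this makeup in the results over all cells was not tested, and values within cell classes are given as well.

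In the whole compartment, the long Schlafen genes and the short Slfn2 rose sharply at 3 h and most of the response was gone at 24 h. Levels are CPM, the counts of a mouse scaled by its library total after adjustment with edgeR's TMM factor. A gene passed the test with an adjusted p under 0.05 in edgeR's quasi-likelihood test, adjusted by the Benjamini-Hochberg method over all 12042 genes tested, and a log2 fold change over 1. At 3 h, Slfn5, Slfn8, Slfn9, Slfn2 and Slfn3 passed, all higher, where 5.22% of all tested genes did. Slfn4 was too rare to be tested. Slfn1 met the filter on low counts through the mice of 3 h alone, so that a higher value at 3 h was fixed by the filter, and it is described by its counts. At 24 h, Slfn5, Slfn8 and Slfn2 still passed, where 1.46% of all genes did. At 72 h no member passed, where 1.7% of all genes did. Of 6 tested, 2 had an adjusted p under 0.05, Slfn8 (0.0349) and Slfn9 (0.0279), and failed on the fold threshold alone. DESeq2 called 0 at 72 h as well.

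**Figure D1:**
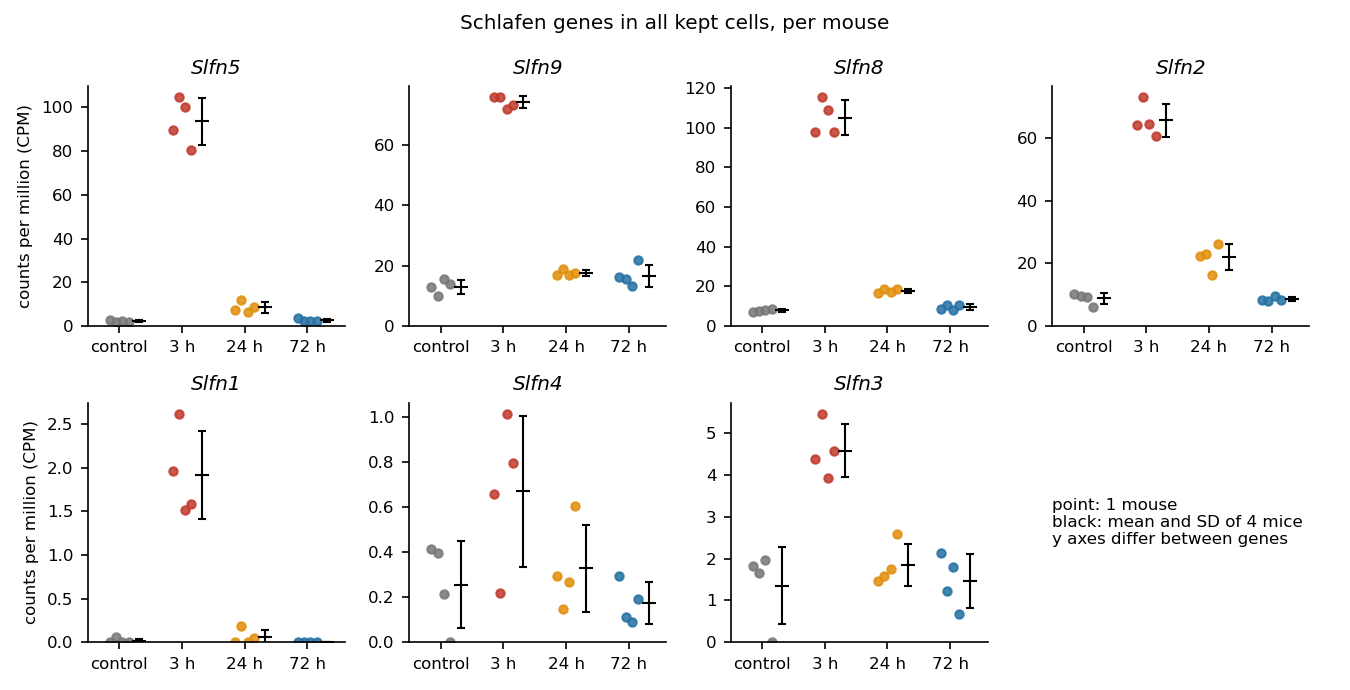
CPM of each Schlafen gene (vertical axis, from 0, of a different range for each gene) in each of the 16 mice by time point; points are mice, and the black marks are the mean and SD of 4 mice. For each gene except Slfn4 the 4 mice at 3 h lie above every control mouse.

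Slfn5, a long, interferon-induced member, stood in the 4 control mice at 2.85, 1.93, 2.07 and 1.74 CPM. It reached 89.7, 105, 100.0 and 80.6 CPM at 3 h, and stood at 7.34, 11.9, 6.39 and 8.48 CPM at 24 h and at 3.69, 2.13, 2.32 and 2.14 CPM at 72 h. Every mouse at 3 and 24 h was above every control mouse, whereas the mice at 72 h overlapped the control mice. The rise at 3 h was 41.0-fold, a log2 fold change of 5.36 ± 0.18 (SE, 4 against 4 mice, adjusted p 4.88e-17). At 24 h the log2 fold change was 1.95 ± 0.21 (adjusted p 3.42e-07) and at 72 h 0.22 ± 0.29 (adjusted p 0.588).

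Slfn8, a long member on the minus strand, stood at 6.84, 7.49, 8.19 and 8.70 CPM in control mice and at 98.0, 116, 109 and 97.7 CPM at 3 h. It was at 16.4, 18.5, 17.3 and 18.6 CPM at 24 h and at 8.34, 10.8, 8.13 and 10.5 CPM at 72 h. All mice at 3 and 24 h were above every control mouse. The log2 fold change was 3.80 ± 0.09 at 3 h (adjusted p 7.30e-20) and 1.24 ± 0.09 at 24 h (adjusted p 1.46e-09). At 72 h it was 0.31 ± 0.11 (adjusted p 0.0349), which is under the fold threshold.

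Slfn9, the neighbour of Slfn8, was at 12.9, 9.82, 15.4 and 13.9 CPM in control mice and at 75.7, 75.9, 71.7 and 73.3 CPM at 3 h. It was at 17.0, 18.8, 17.0 and 17.4 CPM at 24 h and at 16.1, 15.4, 13.1 and 21.7 CPM at 72 h. The control and 3 h mice were far apart. The later mice lay closer to the control mice, but all 4 mice at 24 h and 3 of 4 at 72 h were above every control mouse. The log2 fold change was 2.53 ± 0.12 at 3 h (adjusted p 3.29e-14), 0.46 ± 0.12 at 24 h (adjusted p 0.00591) and 0.37 ± 0.13 at 72 h (adjusted p 0.0279), the last 2 under the fold threshold.

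Slfn2, a short member known to keep T cells quiescent, was at 10.3, 9.48, 9.26 and 6.09 CPM in control mice and at 64.1, 73.3, 64.6 and 60.6 CPM at 3 h. It was at 22.4, 22.9, 16.4 and 26.1 CPM at 24 h and at 8.41, 7.86, 9.65 and 8.36 CPM at 72 h. Mice at 3 and 24 h lay above every control mouse and those at 72 h among them. The log2 fold change was 2.78 ± 0.12 at 3 h (adjusted p 4.16e-15), 1.21 ± 0.11 at 24 h (adjusted p 4.75e-08) and -0.15 ± 0.14 at 72 h (adjusted p 0.413).

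Slfn1, a short member known to slow the growth of thymocytes, was counted mostly at 3 h. It had 1 UMI in the 4 control mice together, 9, 12, 12 and 8 UMIs in the mice at 3 h, 6 UMIs in all at 24 h and 0 at 72 h, where a count of 0 allows up to 0.0697 CPM over the group. The ratio of the pooled levels at 3 h and in control mice was 95.1, with a 95% exact counting interval of 16.1 to 3847.

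The intermediate members were rare. Slfn3 was at 1.81, 1.65, 1.97 and 0 CPM in control mice, the last from control mouse 4 with its 58 cells, and at 4.38, 5.45, 3.92 and 4.56 CPM at 3 h. All mice at 3 h were above every control mouse, with a log2 fold change of 1.36 ± 0.28 (adjusted p 0.000503). At 24 h its log2 fold change was 0.09 ± 0.26 (adjusted p 0.835). Slfn4, known for its rise in activated macrophages, had 19 UMIs in control mice and 16, 25 and 8 at 3, 24 and 72 h. Its 4 control mice were at 0.415, 0.397, 0.213 and 0 CPM and its mice at 3 h at 0.656, 0.218, 1.01 and 0.793 CPM, which overlapped. Without the filter on low counts its log2 fold change at 3 h was 1.06 ± 0.55 (adjusted p 0.173).

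The decline was larger from 3 to 24 h than from 24 to 72 h, except for Slfn2, whose steps were close in size. From 3 to 24 h Slfn5, Slfn8, Slfn9, Slfn2 and Slfn3 were called lower, and lower in every mouse, where 2.93% of all tested genes were called lower. Slfn5 fell by 3.41 ± 0.13 on the log2 scale (adjusted p 1.97e-15), Slfn8 by 2.56 ± 0.07 (adjusted p 6.73e-18) and Slfn9 by 2.07 ± 0.11 (adjusted p 3.28e-13). Slfn2 fell by 1.56 ± 0.10 (adjusted p 1.41e-11) and Slfn3 by 1.26 ± 0.26 (adjusted p 0.000809). From 24 to 72 h, 2 of 6 were called lower, where 0.648% of all genes were. They were Slfn5, which fell by 1.73 ± 0.21 (adjusted p 5.25e-06), and Slfn2, which fell by 1.37 ± 0.12 (adjusted p 2.63e-08). Slfn8 was lower by 0.93 on the log2 scale in all 4 mice, under the fold threshold, and Slfn9 was at -0.09 ± 0.12 (adjusted p 0.695).

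The same sums were then formed for 6 classes of cells named by markers, from mice with at least 10 cells of the class. Control mouse 4 enters only the HSC-like class, with 12 cells, and the neutrophil progenitor-like class, with 11 cells. Its values there rest on few UMIs but count as those of 1 mouse in means, SDs and overlaps. The other 4 classes have 3 control mice. At 3 h Slfn2, Slfn8 and Slfn9 were called higher in 5 classes, all except the erythroid progenitor-like, where Slfn8 was. Slfn5 was called higher in HSC-like and LMPP-like cells. Slfn5 in the other 4 classes, Slfn3 in neutrophil progenitor-like and Slfn9 in erythroid progenitor-like cells met the filter on low counts through the mice of 3 h alone. A higher value at 3 h was fixed by the filter for them, and their values at 3 h are given as a description. Of all tested genes 4.28, 3.64, 3.17, 3.58, 3.21 and 4.09% were called higher at 3 h in the HSC-like, LMPP-like, monocyte progenitor-like, MK progenitor-like, neutrophil progenitor-like and erythroid progenitor-like class, in that order. All mice at 3 h lay above every control mouse for each of the called members and classes.

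**Figure D2:**
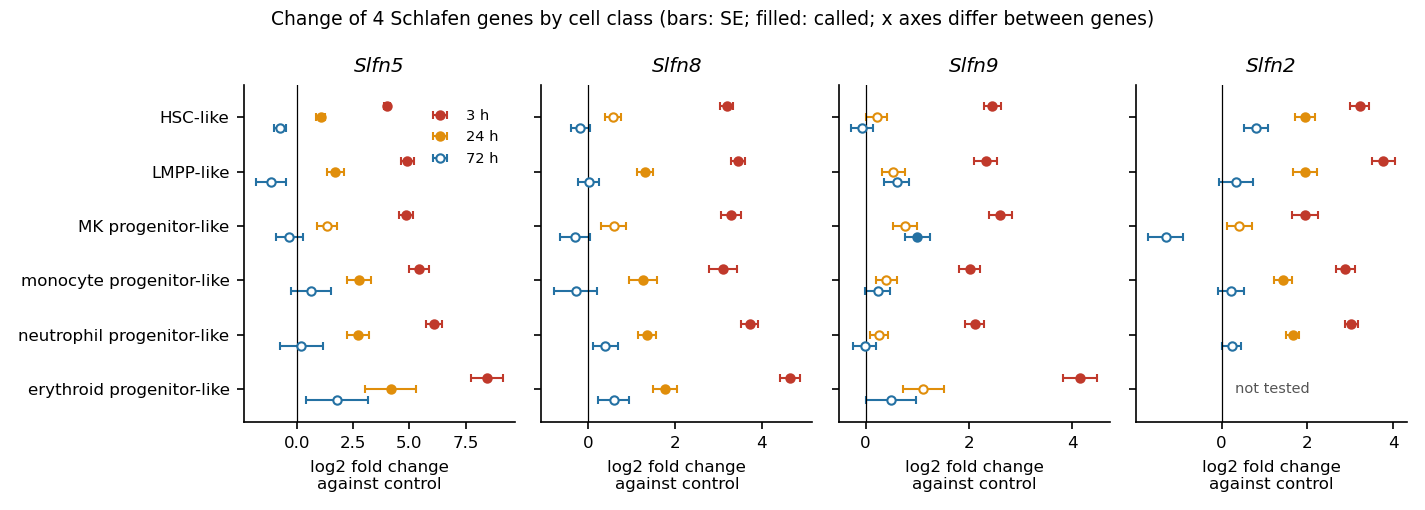
Log2 fold change against control (horizontal axis) of Slfn5, Slfn8, Slfn9 and Slfn2 at 3, 24 and 72 h in the 6 cell classes; bars are the SE, filled points passed the test, and the horizontal axes differ between panels. The change of Slfn5 at 3 h is 4.0 in HSC-like and 6.08 in neutrophil progenitor-like cells, and at 72 h the only point that passed is Slfn9 in MK progenitor-like cells. Slfn5 in monocyte, neutrophil, erythroid and MK progenitor-like cells and Slfn9 in erythroid progenitor-like cells met the filter through the mice of 3 h alone. Their higher value at 3 h was fixed by the filter, and their filled points at 3 h are a description only.

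Slfn5 was higher at 3 h in all classes, from unequal levels. In HSC-like cells it was already present in control mice, at 18.6, 12.0, 11.3 and 7.65 CPM, and reached 242, 236, 226 and 197 CPM at 3 h. The last control value is from 12 cells of control mouse 4, which had 2 Slfn5 UMIs over all its cells. In neutrophil progenitor-like cells the control mice were at 0.753, 0.484, 0.322 and 0 CPM, and the mice at 3 h at 26.3, 63.6, 36.3 and 34.2 CPM. In erythroid progenitor-like cells the 3 control mice had no Slfn5 UMI among 7579638, and the mice at 3 h were at 17.0, 21.1, 26.4 and 37.9 CPM. The mean levels had 1 order in control mice and at 3 h, falling from HSC-like through MK progenitor-like, LMPP-like, monocyte progenitor-like and neutrophil progenitor-like to erythroid progenitor-like cells. At 3 h they were 225 CPM (SD 20.1, n = 4), 110 (SD 18.7), 79.8 (SD 33.2), 57.5 (SD 14.4), 40.1 (SD 16.2) and 25.6 CPM (SD 9.03), and the mice of each class after the first overlapped those of the next. The log2 fold change at 3 h was 4.0 ± 0.15 in HSC-like cells (adjusted p 1.12e-21) and 6.08 ± 0.37 in neutrophil progenitor-like cells. In erythroid progenitor-like cells the pooled level at 3 h was 58.7 times the floor of 3 counts over the control mice. The counting error of the 61 UMIs at 3 h is not in this value, which is therefore no bound. LMPP-like, monocyte progenitor-like and MK progenitor-like cells changed by 4.90 ± 0.29, 5.43 ± 0.43 and 4.85 ± 0.31.

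Slfn8 and Slfn9 were low in erythroid progenitor-like cells of control mice. There Slfn8 went from a mean of 3.37 CPM (SD 1.23, n = 3) to 84.3 CPM (SD 8.03, n = 4), a log2 fold change of 4.66 ± 0.23 (adjusted p 1.76e-16). Slfn9 went from 2.60 CPM (SD 0.650, n = 3) to 51.1 CPM (SD 18.6, n = 4), a log2 fold change of 4.15 ± 0.33. In HSC-like cells the changes of Slfn8 and Slfn9 were 3.20 ± 0.15 and 2.45 ± 0.17, from means of 23.7 CPM (SD 10.4, n = 4) and 17.8 CPM (SD 5.66, n = 4). In the other classes Slfn8 changed by 3.1 to 3.72 and Slfn9 by 2.01 to 2.60 on the log2 scale.

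Slfn2 rose in 5 classes and was scarcely found in the erythroid progenitor-like cells. Its log2 fold change at 3 h was 3.22 ± 0.22 in HSC-like, 3.77 ± 0.27 in LMPP-like, 3.02 ± 0.16 in neutrophil progenitor-like, 2.89 ± 0.22 in monocyte progenitor-like and 1.95 ± 0.30 in MK progenitor-like cells. In erythroid progenitor-like cells it had 2 UMIs in the control mice and 7, 10 and 0 at 3, 24 and 72 h, too few for the test. The ratio of the pooled levels there at 3 h and in control mice was 10.1, with a 95% exact counting interval of 1.92 to 99.7. Its mean level in those cells at 3 h was 3.59 CPM (SD 3.78, n = 4), against 59.1 CPM (SD 14.0, n = 4) in MK progenitor-like, 93.8 CPM (SD 13.2, n = 4) in neutrophil progenitor-like and 91.0 CPM (SD 13.9, n = 4) in monocyte progenitor-like cells.

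Slfn1 and Slfn4 were counted mostly in the myeloid and lymphoid classes, and Slfn3 was spread over the classes. Of the 41 UMIs of Slfn1 at 3 h, 16 were in neutrophil progenitor-like, 10 in LMPP-like and 9 in monocyte progenitor-like cells, 1 each in HSC-like and MK progenitor-like cells. In the erythroid progenitor-like class it had 0, where a count of 0 allows up to 1.14 CPM. With no UMI in the control mice, the pooled level of Slfn1 at 3 h was 24.9 times the floor of 3 counts over the group in neutrophil progenitor-like cells. In LMPP-like cells it was 6.57 times the floor there. These values leave out the counting error at 3 h and are no bounds. Of the 16 UMIs of Slfn4 at 3 h, 13 were in neutrophil progenitor-like cells, as were 16 of its 19 in control mice. Slfn3 went from a mean of 1.82 CPM (SD 1.26, n = 4) in control mice to 8.93 CPM (SD 2.86, n = 4) at 3 h in neutrophil progenitor-like cells. In erythroid progenitor-like cells, where it was not tested, it went from 2.14 CPM (SD 0.468, n = 3), the highest control mean of the 6 classes, to 5.93 CPM (SD 3.07, n = 4). Pooled over the control mice, its level was 2.24 CPM there and 2.48 CPM in neutrophil progenitor-like cells, so that the order of these classes depends on the measure.

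Whether the response at 3 h differed between classes was tested in 1 fit with the mouse as a term, over 10674 genes. Slfn9 (adjusted p 0.000809), Slfn5 (adjusted p 0.00283) and Slfn8 (adjusted p 0.0354) differed over the 6 classes, where 6.55% of all tested genes did. Slfn2 (adjusted p 0.0973) and Slfn3 (adjusted p 0.970) did not pass. Against HSC-like cells, the rise was larger in erythroid progenitor-like cells for Slfn5 by 4.59 ± 1.17 (adjusted p 0.0129), for Slfn9 by 1.65 ± 0.41 (adjusted p 0.00910) and for Slfn8 by 1.44 ± 0.35 (adjusted p 0.00738) on the log2 scale, where 3.12% of all genes differed. The value for Slfn5 is no bound, since its erythroid control mice had no UMI. In neutrophil progenitor-like cells only Slfn5 rose more than in HSC-like cells, by 1.98 ± 0.49 (adjusted p 0.00649), where 3.34% of all genes differed. No member was called in LMPP-like, monocyte progenitor-like or MK progenitor-like cells against HSC-like cells, where 0.899, 2.54 and 0.0281% of all genes were, and 1 member in each had an unadjusted p under 0.05. The largest difference there for Slfn2 was -1.27 ± 0.42 in MK progenitor-like cells (adjusted p 0.441).

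These class differences rest on the few control mice. Without control mouse 1 or 3, none of the 4 calls against HSC-like cells was made. Without control mouse 1 the differences in erythroid progenitor-like cells were 4.23 for Slfn5 (adjusted p 0.113), 1.38 for Slfn9 (adjusted p 0.133) and 1.36 for Slfn8 (adjusted p 0.0566), and in neutrophil progenitor-like cells 2.11 for Slfn5 (adjusted p 0.0706). Without control mouse 3 they were 4.67 (adjusted p 0.0790), 1.76 (adjusted p 0.0586), 1.10 (adjusted p 0.212) and 1.97 (adjusted p 0.0501) in the same order. Over the 6 classes, 1 member was called without control mouse 1. The mix of clusters inside these classes also moved. The erythroid progenitor-like cluster led by Hba-a1 and Hbb-bs held 87 of 248 control cells of its class and 26 of 122 at 3 h. The neutrophil progenitor-like cluster led by S100a8 and S100a9 held 180 of 521 control cells and 18 of 148 at 3 h. The LMPP-like cluster with the ISGs Iigp1, Ifit1 and Isg15 among its leading genes had 94 control cells and 32 at 3 h. The other LMPP-like cluster had 272 and 203. The part of this mix in the class differences was not tested.

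At 24 h, 0 to 3 members were called higher in a class. Slfn5, Slfn8 and Slfn2 were called higher in LMPP-like, neutrophil progenitor-like and monocyte progenitor-like cells, where 0.998, 0.875 and 0.893% of all genes were. Slfn5 and Slfn2 were called in HSC-like cells (0.692% of all genes), Slfn5 and Slfn8 in erythroid progenitor-like cells (1.27%) and 0 of 4 in MK progenitor-like cells (0.509%), where 1 of them, Slfn5, is called by the likelihood ratio test, 0 are called by DESeq2 and 3, Slfn5, Slfn8 and Slfn9, had an unadjusted p under 0.05 in the quasi-likelihood test. In HSC-like cells Slfn2 was highest relative to control, with a log2 fold change of 1.94 ± 0.24 (adjusted p 2.52e-07), and Slfn8 was at 0.58 ± 0.19 (adjusted p 0.0680). Over the 6 classes none of 5 members was called different in its response at 24 h, where 4.14% of all genes were, and 3 had an unadjusted p under 0.05. The lowest adjusted p was 0.0759, for Slfn5.

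Several of these calls hang on single mice. Slfn5 in HSC-like cells had a log2 fold change of 1.05 ± 0.20 (adjusted p 0.000395) at 24 h, and fell under the fold threshold without mouse 2 (0.92) or 4 (1.00) of 24 h or control mouse 2 (0.98) or 3 (0.90). In erythroid progenitor-like cells its adjusted p of 0.0176 became 0.0742 and 0.0826 without control mouse 1 or 3. That call rests on 12 UMIs at 24 h and 0 in the control mice. The pooled level at 24 h was 3.24 times the floor of 3 counts over the control mice, which is no bound. In monocyte, neutrophil, erythroid and MK progenitor-like cells Slfn5 entered the test at 24 h through the mice of 3 h alone. Slfn8 in monocyte progenitor-like cells, at 1.26 ± 0.33 (adjusted p 0.0138), was at 0.86 without control mouse 1 (adjusted p 0.210). Slfn5 in MK progenitor-like cells, at 1.34 ± 0.43 (adjusted p 0.0780), passed without mouse 1 (adjusted p 0.0493) or 3 (adjusted p 0.0475) of 24 h. Slfn9 in erythroid progenitor-like cells, at 1.11 ± 0.40 (adjusted p 0.0731), passed without mouse 1 of 3 h (adjusted p 0.0448).

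At 72 h, 1 member was called in 1 class, where it had not been called at 24 h. In HSC-like, LMPP-like, neutrophil progenitor-like, monocyte progenitor-like and erythroid progenitor-like cells no member was called higher, where 0.438, 0.546, 0.466, 0.607 and 0.531% of all genes were. DESeq2 called 0 there too. An unadjusted p under 0.05 was seen for Slfn2 and, in the lower direction, Slfn5 in HSC-like cells and for Slfn9 in LMPP-like cells. In HSC-like cells Slfn5 was at -0.74 ± 0.26 (adjusted p 0.114) and Slfn8 at -0.18 ± 0.21 (adjusted p 0.750). There Slfn9 was at -0.07 ± 0.21 (adjusted p 0.924) and Slfn2 at 0.80 ± 0.28 (adjusted p 0.106). In MK progenitor-like cells Slfn9 was called, where 0.439% of all genes were. It went from a mean of 13.2 CPM (SD 2.91, n = 3) in control mice to 26.6 CPM (SD 6.62, n = 4), above every control mouse in all 4, with a log2 fold change of 1.00 ± 0.24 (adjusted p 0.00804). This value stands at the fold threshold, and the call was lost in 10 of the 15 fits that left out 1 mouse, with log2 fold changes of 0.82 to 1.18 over the 15. The lowest was without control mouse 2, with the only adjusted p over 0.05 (0.0988). The call was also lost with library size alone, no filter on low counts, the hashtag number block and both other label transfers. In the same cells Slfn2 was at -1.31 ± 0.40 (adjusted p 0.0595), below every control mouse in 3 of 4 mice. It was called lower with library size alone (adjusted p 0.0444), no filter on low counts (0.00515) and the hashtag number block (0.0222). The likelihood ratio test (adjusted p 0.0168) and the transfer without correction (0.0305) called it lower too. So did 6 of the 15 fits that left out 1 mouse, with log2 fold changes of -1.60 to -0.66 over the 15. Over the 6 classes none of 5 members was called different at 72 h, where 0.45% of all genes were, and 2 had an unadjusted p under 0.05.

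The rise was also seen as more cells with a transcript. Each cell was thinned to 5000 UMIs, which left out 35, 61, 35 and 68 cells of the control, 3, 24 and 72 h libraries. In the whole compartment 17.0, 14.0, 16.9 and 15.8% of the cells of the 4 control mice had a UMI of at least 1 member, against 74.8, 76.5, 74.6 and 72.9% at 3 h. At 24 h the share was 27.5% (SD 3.39, n = 4) and at 72 h 17.4% (SD 2.28, n = 4). The groups at 3 and 24 h did not overlap the control mice and those at 72 h did. Thinned to 8000 UMIs, the share at 72 h was 25.6% (SD 2.13, n = 4) against 20.0% (SD 5.37, n = 4) in control mice, with all 4 mice above every control mouse (exact p 0.0286). Without thinning it was 40.6% (SD 2.62, n = 4) against 41.0% (SD 3.87, n = 4). In HSC-like cells thinned to 8000 UMIs the share at 72 h was 31.7% (SD 4.17, n = 4) against 32.4% (SD 3.23, n = 3) in control mice. The two-sided exact permutation p was 0.0286 at 3 h and at 24 h, the smallest that 4 against 4 mice can give. After adjustment over 60 shares it was 0.0686, and no share passed 0.05.

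Cells with several members became common at 3 h. At least 2 members had a UMI in 1.53% (SD 0.452, n = 4) of control cells and in 38.4% (SD 2.85, n = 4) at 3 h, and at least 3 members in 0.0306% (SD 0.0613, n = 4) and 13.6% (SD 1.65, n = 4). In HSC-like cells at least 1 member was found in 24.0% (SD 1.27, n = 4) of control cells and 85.3% (SD 2.68, n = 4) at 3 h, and at least 2 members in 4.02% (SD 2.89, n = 4) and 55.2% (SD 2.09, n = 4). In erythroid progenitor-like cells at least 1 member was found in 2.77% of control cells and in 56.4% at 3 h. All these differences at 3 h in the whole compartment and HSC-like cells had an exact p of 0.0286, with every mouse above every control mouse.

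**Figure D3:**
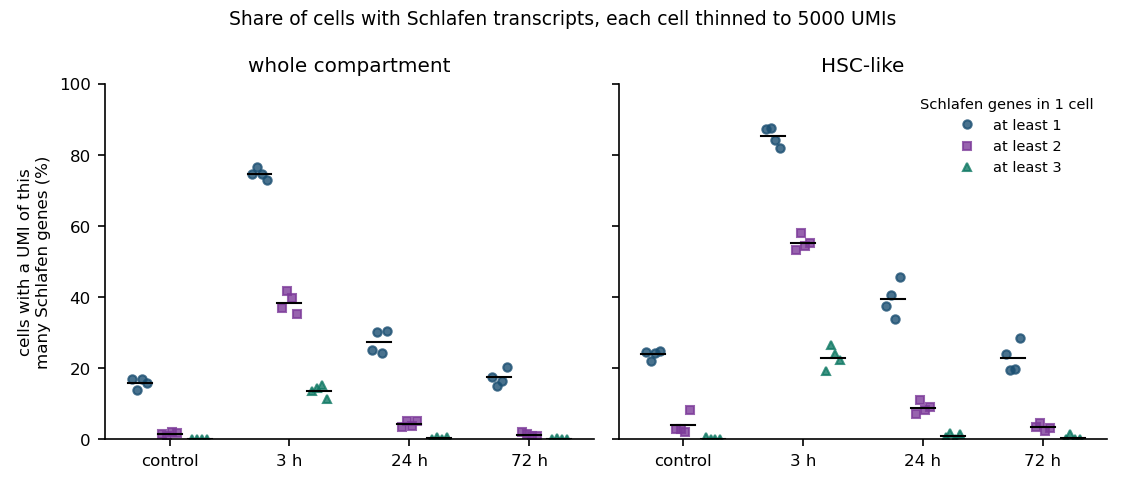
Percentage of cells with a UMI of at least 1, 2 or 3 Schlafen genes (vertical axis) after thinning to 5000 UMIs, by time point, in the whole compartment and HSC-like cells; points are mice. At 3 h all 4 mice lie above 72% for at least 1 gene in the whole compartment, and at 72 h the mice overlap the control mice.

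Transcripts per positive cell are given beside the share of positive cells; they cannot be under 1 and lie near it at this depth, so that the sizes of both changes cannot be compared. Slfn5 had a UMI in 1.95% (SD 1.06, n = 4) of thinned control cells and in 35.1% (SD 2.76, n = 4) at 3 h, while the UMIs per cell with a UMI were 1.40 (SD 0.494, n = 4) and 1.75 (SD 0.0610, n = 4). In HSC-like cells the share went from 5.79% (SD 1.81, n = 4) to 56.6% (SD 3.04, n = 4) and the UMIs per positive cell from 1.54 (SD 0.676, n = 4) to 2.03 (SD 0.0674, n = 4). For Slfn8 in the whole compartment the UMIs per positive cell went from 1.03 (SD 0.0315, n = 4) to 1.45 (SD 0.117, n = 4). Since a cell with few transcripts often shows none at this depth, a UMI share is not a count of expressing cells.

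Free RNA in droplets also gives UMIs, and no class is known to lack all members. Slfn2 had a UMI in 4.28% of erythroid progenitor-like cells at 3 h, against 29.1% of HSC-like cells of the same library. The median depth before thinning was 19269.5 UMIs in the former and 8856.5 in the latter.

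The ISG list gives the scale of these changes. At 3 h all 32 listed ISGs were called higher in the whole compartment, with a median log2 fold change of 3.88, from 1.18 for Irf1 to 7.58 for Ifit3, while the median over all tested genes was near 0. Slfn5 lay above that median and Slfn8, Slfn2, Slfn9 and Slfn3 below it. At 24 h, 21 of 32 were called higher, with a median of 1.28, and at 72 h 0 were higher and 2 lower, with a median of 0.06. In MK progenitor-like cells at 24 h, where none of 4 members was called, 13 of 32 ISGs were.

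The genes with the most similar course were ISGs too. Over the 18 log2 fold changes of 6 classes and 3 time points, the smallest root mean square distance among 7495 genes tested in all classes was 0.283 from Slfn8 to Parp12, followed by Trim30a (0.377) and Igtp (0.382). For Slfn9 the closest were Tor3a (0.380), Gbp7 (0.387) and Sp100 (0.412). Slfn5 had no gene as close, the nearest being Zbp1 (0.893), Oasl2 (0.910) and Ddx60 (0.975). Between members the distance was 0.816 for Slfn8 and Slfn9, 1.58 for Slfn5 and Slfn8 and 2.24 for Slfn5 and Slfn9. The nearest genes were picked as the closest of 7495, while the relatives are few, so that these distances cannot be set against each other. Whether a member resembles other genes more than its relatives was not tested. The distances of Slfn5 also include classes with few or no UMIs of it in control mice. The 18 values of a gene share the control mice and the mice of each time point.

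**Figure D4:**
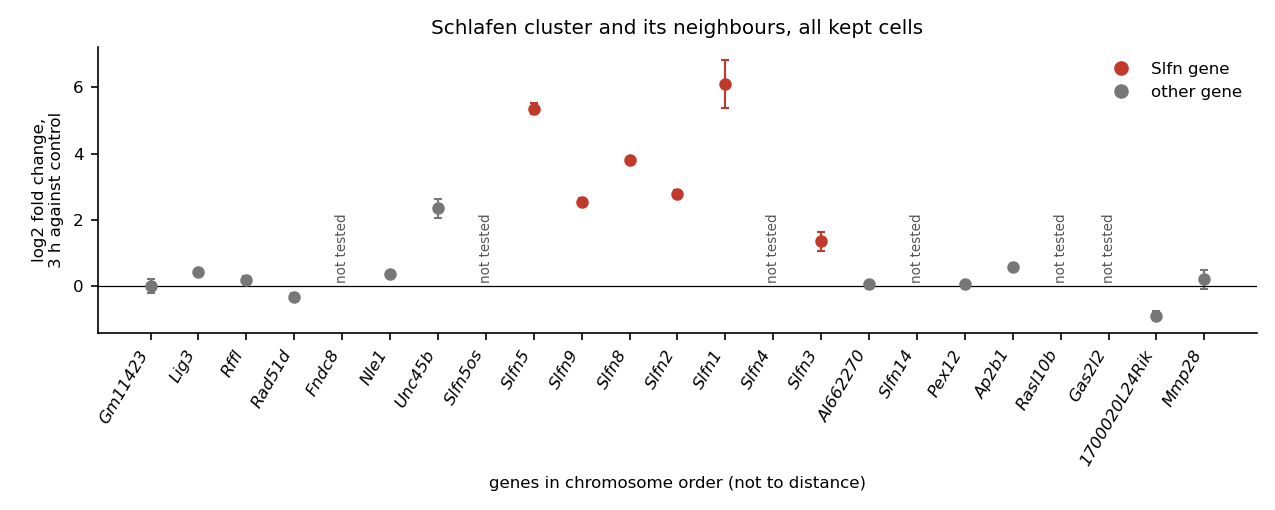
Log2 fold change at 3 h against control in the whole compartment (vertical axis, bars SE) of the Schlafen genes and the neighbouring genes in their order along chromosome 11. Of the neighbours, Unc45b passed the test, at 2.35, and the others lie between -0.88 and 0.58.

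Of the genes that lie around and among the Schlafen genes, 1 other gene was called at 3 h in the whole compartment. The 6 nearest genes of the count files on each side and 2 genes that lie within the 344 kb from Slfn5os to Slfn14 make 14 neighbours, of which 11 were tested. Their median log2 fold change at 3 h was 0.20. Of them Unc45b was called, where 5.22% of all tested genes were called higher, so that 1 call among 11 does not set this stretch apart. Unc45b, which encodes a myosin chaperone, lies directly before Slfn5 and overlaps the antisense gene Slfn5os. It was at 0.749, 0.931, 0.711 and 1.81 CPM of the unscaled library in control mice, the last from 2 UMIs. At 3 h it was at 3.06, 3.47, 3.62 and 5.13 CPM, each mouse above each control mouse. Its log2 fold change was 2.35 ± 0.28 (adjusted p 5.66e-07) at 3 h and 0.91 ± 0.28 (adjusted p 0.0169) at 24 h, and in HSC-like cells at 3 h 1.18 ± 0.30 (adjusted p 0.00349). In single classes, Rffl was called higher in LMPP-like cells at 3 h (1.26 ± 0.38, adjusted p 0.0198) and 24 h (1.14 ± 0.30, adjusted p 0.0130), where 3.64 and 0.998% of all genes were. Gm11423 was called higher in MK progenitor-like cells at 24 h (1.26 ± 0.35, adjusted p 0.0316) and 72 h (1.57 ± 0.36, adjusted p 0.00486), where 0.509 and 0.439% were. These were 2 of 18 tests of Rffl and 2 of 12 of Gm11423 over classes and time points. Slfn5os, on the opposite strand, had 0 UMIs in all mice. Where the reads of Unc45b begin was not tested.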

How the data were processed

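LK cells of 16 mice, with HSCs added, were profiled in 4 transcriptome and 4 hashtag libraries. The authors deposited raw UMI counts of each gene in each barcode, made with Cell Ranger 3.1.0 and the mm10 genome and not normalized. The annotation is not given in the sources used here. They also deposited Seurat's hashtag call of each barcode and its hashtag counts. CPM and log2 values were computed here from these deposited counts.

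Barcodes with a single hashtag, at least 700 genes and at most 5% mitochondrial UMIs were kept. Doublets of cells from different mice were removed by the hashtag calls, and those from the same mouse remain. Control cells were clustered with Scanpy 1.11.5 and leidenalg 0.10.2 under Python 3.11.15 (500 variable genes, 10 components, Leiden resolution 0.8), with the 10 Slfn rows left out. Of 14 clusters, 11 were named from marker lists. The larger neutrophil progenitor-like cluster, of 341 control cells, scored higher on the monocyte progenitor list (mean log2 fold 1.29) than on the neutrophil progenitor list (0.87). Its 10 leading genes held 5 markers of the neutrophil and 1 of the monocyte list. Among the leading genes of an LMPP-like cluster were the ISGs Iigp1, Ifit1 and Isg15. The listed ISGs Ly6a and Ifi44 were among those of the larger HSC-like cluster, and Ly6a among those of the other. Labels were transferred over 3245 genes with a mutual nearest neighbor correction, and 24 cells with markers of mature cells were left out of the classes. Cells of unnamed and Ba/MC/Eo progenitor-like clusters entered the whole compartment only, and names rebuilt here may differ from the study's.

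Counts were summed per mouse, and per mouse and class with at least 10 cells. The fit used edgeR 4.0.16 (R 4.3.3), with genes kept by filterByExpr, libraries scaled by TMM and the quasi-likelihood F test. All mice of the 4 time points entered it. Fold changes carry a prior count of 0.125, and SE is the absolute log2 fold change over the root of F. The p-values measure the spread between the 4 mice of a library. Class differences came from 1 fit with mouse, class and class by time point. The exact permutation tests of shares were two-sided and over mice. Intervals cover counting error only, and the floors cover that of the count of 0 alone. Alternatives were DESeq2 1.42.0, library size without TMM, no filter on low counts, the likelihood ratio test, each mouse left out, a hashtag number block, no cell filters, 2 other label transfers, and no thinning or thinning to 8000 UMIs. Tests were tested on simulated data.

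The text names all 7 members and other Slfn rows, extremes of an ISG list of 32 genes, the 6 nearest genes on each side and those inside the cluster, and the 3 genes closest to each member tested in every class. The members and lists were chosen with earlier results of these data known.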

Additional observations from a re-analysis of the deposited data

Results flagged for a closer look

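In 12 of 105 groups of 4 mice, 1 mouse stood apart from the other 3 by Dixon's criterion, which chance alone meets in about 1 of 20 groups. Most of these are levels of mice that do not touch a call. At 3 h, mouse 2 was high for Slfn8 in HSC-like cells (222.5 CPM, others 164.4 to 172.7) and in neutrophil progenitor-like cells (61.89 CPM, others 47.33 to 47.87) and for Slfn2 in monocyte progenitor-like cells (111.8 CPM, others 82.41 to 85.62). Mouse 1 of 3 h was high for Slfn2 in LMPP-like cells (60.95 CPM, others 53.99 to 55.06).

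At 24 h, mouse 2 was high for Slfn5 in monocyte progenitor-like cells (14.67 CPM, others 4.781 to 5.9), mouse 3 was low for Slfn5 in neutrophil progenitor-like cells (0.7506 CPM, others 4.096 to 4.449), and mouse 4 was low for Slfn9 in LMPP-like cells (15.4 CPM, others 21.49 to 22.39). At 72 h, mouse 1 was high for Slfn5 in the whole compartment (3.689 CPM, others 2.132 to 2.324), and mouse 2 was high in erythroid progenitor-like cells for Slfn8 (8.107 CPM, others 3.703 to 4.333) and Slfn5 (0.737 CPM, from 1 UMI, others 0). In control mice, mouse 2 held the only UMI of Slfn1 (0.05678 CPM) and mouse 4, with 58 cells, had 0 CPM of Slfn3 (others 1.647 to 1.968).

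The response at 3 h differed between the 6 classes in the joint test of edgeR for Slfn5 (adjusted p 0.00283), Slfn9 (adjusted p 0.000809) and Slfn8 (adjusted p 0.0354). Against HSC-like cells, the log2 fold change was higher by 4.591 for Slfn5, 1.645 for Slfn9 and 1.44 for Slfn8 in erythroid progenitor-like cells, and by 1.985 for Slfn5 in neutrophil progenitor-like cells. The value of Slfn5 in erythroid progenitor-like cells rests on control mice with 0 UMIs and is no bound. These 4 differences were not called without control mouse 1 or 3.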

How the results depend on the processing

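The counts of members called in the whole compartment and in every class at 3 h stayed within 1.5 times their size under all alternatives run. The counts at 3 h include the members that met the filter on low counts through the mice of 3 h alone. Their higher value was fixed by the filter, so that for them this says nothing of stability. No share passed 0.05 after adjustment, with or without thinning, so that the tests of shares say nothing of stability. The unadjusted exact p of 8 of 60 shares crossed 0.05 with thinning to 8000 UMIs and that of 6 without thinning, among them Slfn9 in the whole compartment at 24 h (0.229, and 0.0286 under both). In MK progenitor-like cells the count at 24 h (0) was 1 with no filter and with the likelihood ratio test and 0 to 1 without single mice. The count there at 72 h (1) was 0 with library size alone, no filter, the hashtag number block and both other label transfers. Without single mice it was 0 to 1. These counts are of members called higher and leave out Slfn2, which several alternatives called lower there at 72 h. At 24 h the count was 1 to 2 in HSC-like and 1 to 3 in erythroid progenitor-like cells without single mice. Class differences at 3 h numbered 1 to 3 over all classes, 0 to 3 in erythroid and 0 to 1 in neutrophil progenitor-like cells without single mice; with no filter they were 2 at 24 h and 1 at 72 h. Fits without single mice were not run for class differences at 24 and 72 h or against LMPP-like, monocyte progenitor-like and MK progenitor-like cells, nor were the other tests and the block for any class difference.

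The hashtag numbers did not pair the mice: deviations of same-numbered mice correlated between -0.0582 and 0.0946 over 24 pairs. The block changed no other count.

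Some log2 fold changes that did not pass the test turned direction. For Slfn8 in LMPP-like cells at 72 h (0.01) they were -0.0697 with library size alone, -0.0013 with no filter and -0.0195 without the correction. For Slfn3 in neutrophil progenitor-like cells at 24 h (0.0013) they were -0.0021 with DESeq2, -0.0696 with library size alone, -0.0305 with no filter, -0.0321 with the block and -0.0252 without ISGs in the transfer. Without single mice the ranges at 72 h were, in the whole compartment, -1.84 to 0 for Slfn1, -0.49 to 0.0079 for Slfn3 and -0.050 to 0.41 for Slfn5; for Slfn5, -0.67 to 0.16 in MK, 0 to 2.18 in erythroid, -0.41 to 1.24 in monocyte and -0.37 to 0.54 in neutrophil progenitor-like cells; for Slfn2, -0.0036 to 0.41 in monocyte and -0.095 to 0.37 in neutrophil progenitor-like cells; for Slfn8, -0.15 to 0.10 in LMPP-like and -0.68 to 0.094 in monocyte progenitor-like cells; and for Slfn9, -0.28 to 0.064 in HSC-like and -0.19 to 0.28 in neutrophil progenitor-like cells. At 24 h they were -0.13 to 0.18 for Slfn3 in the whole compartment and -0.20 to 0.14 in neutrophil progenitor-like cells, and from 24 to 72 h -0.24 to 0.0033 for Slfn9. The cause was not tested.

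Limits are the 58 cells of control mouse 4, which leave 3 control mice in 4 classes, and the low counts of Slfn1, Slfn3 and Slfn4, whose class values rest on few UMIs. In the HSC-like and neutrophil progenitor-like classes control mouse 4 enters with 12 and 11 cells.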

Other observations

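The other rows of the family were nearly empty in these cells. Slfn14, known from reticulocytes and platelets, had 4 UMIs in control mice and 1 each at 3, 24 and 72 h, 1 of them in MK progenitor-like cells. Slfnl1 had 1 UMI in control mice and 2 at 72 h, and the antisense gene Slfn5os had 0 in all mice.

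With no filter on low counts, rarer members could be fitted in single classes, and these values were looked at after the others. Slfn4 was called higher at 3 h in neutrophil progenitor-like cells, with a log2 fold change of 1.94 ± 0.60 (adjusted p 0.0152, edgeR quasi-likelihood test), from 16 UMIs in control mice and 13 at 3 h. Slfn1 was called higher in monocyte progenitor-like cells (3.91 ± 1.12, adjusted p 0.00809), from 1 control UMI and 9 at 3 h. Slfn2 was called higher in erythroid progenitor-like cells (3.22 ± 1.07, adjusted p 0.0335), from 2 and 7 UMIs. Slfn1 was also called in neutrophil progenitor-like (6.54 ± 0.96, adjusted p 4.72e-10) and LMPP-like cells (5.57 ± 1.37, adjusted p 0.000844). These last values rest on control mice with 0 UMIs and are no bound. The share of all genes called without the filter is not given, so that these calls cannot be set against it. At 3 h no other class fit of a member that the filter had left out was called. Slfn3 ranged from 1.12 ± 0.73 (monocyte progenitor-like) to 2.22 ± 0.93 (MK progenitor-like). Slfn1 was at 2.06 ± 1.86 in HSC-like and 2.52 ± 2.05 in MK progenitor-like cells. Slfn4 was at -1.97 ± 1.87 in HSC-like, -1.45 ± 2.30 in erythroid progenitor-like, 0.85 ± 1.83 in LMPP-like and 3.38 ± 1.75 in monocyte progenitor-like cells.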
